A study of Homo sapiens with 24 samples.

Results

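MOLM14 is an established human acute myeloid leukaemia (AML) line of monocytic type that is known to carry an internal tandem duplication of the receptor kinase gene FLT3 and a fusion of KMT2A. The data described here are the RNA profiles of MOLM14 cells kept for 24 h with ARM165 or with the solvent DMSO, 4 libraries each. These 8 libraries were taken by their labels from a series of 24, which also holds 4 MOLM14 libraries with a second compound, AZ2, and the same 3 groups of 4 in OCI-AML2, another AML line. The series title names a heterobifunctional degrader aimed at PI3K gamma and AKT in AML, but which of the compounds this is, the doses used and whether the 4 libraries of a group came from separate cultures is not given in the labels. If they did not, the p-values rest on technical spread alone. The 3 MOLM14 groups shared the line, and all groups the 24 h of exposure, and no group was left without solvent or compound. The question of the comparison is which of all measured genes differed between ARM165 and DMSO in this line.

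PI3K gamma is the class I lipid kinase of white blood cells that acts below G protein-coupled receptors. Its product recruits the kinase AKT, which keeps the FOXO factors out of the nucleus and feeds mTORC1, the complex that drives ribosome production, translation and lipid synthesis and holds back autophagy. A degrader of the heterobifunctional kind joins a ligand of its target to a ligand of a ubiquitin ligase, so that the target protein is marked for the proteasome. Such a loss of protein need not alter the mRNA of the target, and mRNA is all that was measured here.

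The deposited values are normalized read counts per gene symbol, summed from transcript estimates. Written with M for the mega prefix, they add up to 43.3 to 45.0 M per DMSO library and 37.3 to 41.2 M per ARM165 library, from an estimated 44.8 to 59.0 M and 35.4 to 50.2 M reads. Log2 values of libraries of the same group correlated across genes at 0.975 to 0.977 with DMSO and 0.972 to 0.975 with ARM165. The 10 myeloid markers checked all had a DMSO mean of at least 50, and their summed level was 90984 to 95715 with DMSO and 57502 to 65172 with ARM165 (3 higher, 6 lower). The 9 T and NK cell genes summed to 744 to 809 with DMSO and 1866 to 2070 with ARM165, almost all of the rise being CD8A (38.8 ± 13.3 to 1390 ± 58.4, SD, n = 4), while CD3E was listed at 0 in all 8 libraries and CD3D and CD3G had means under 7 in both groups. The 7 B cell genes summed to 564 to 686 and 328 to 416, mostly PAX5. The 12 erythroid and megakaryocyte genes stayed between 20.0 and 67.5, and the 10 epithelial and fibroblast genes rose from between 2085 and 2399 to between 3631 and 3927, almost wholly KRT18 and KRT8, with KRT5 listed at 0 throughout. The part of these genes in the results below was not tested. In bulk RNA, fewer cells of a kind and less RNA per cell cannot be told apart.

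ARM165 altered most of the transcriptome of MOLM14. Of 35587 symbols, 15288 had at least 10 in at least 4 libraries and were tested with limma on log2(value + 1). At an adjusted p under 0.05 (Benjamini-Hochberg over all genes tested), which is what "higher" and "lower" mean below, 5427 were higher (35.5%) and 5196 lower (34.0%), 69.5% in all. The libraries of the 2 groups did not overlap at all for 63.8% of genes. Every count of list members below is to be read beside these shares. Members and lists were chosen with earlier results of these data known, so the counts are descriptions and not tests. A ± after a log2 change or a difference of changes is the limma standard error. After a group mean or a share it is the SD of 4 libraries. With all libraries set to the same sum, the split was 6676 higher to 4142 lower, since the median change then moved from 0.031 to 0.22 on the log2 scale. It leaned the other way under quantile normalization (5121 higher, 5652 lower), with a filter at 100 (4607 and 4791) and without ARM165 replicate 4 (5053 and 5250). Which direction was more frequent is therefore not read from these counts. Directions here are relative to the deposited scaling, which carries no information on how much RNA a cell held.

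A change of at least 4-fold was seen for 809 higher and 276 lower genes, and of at least 16-fold for 170 and 9. These counts include genes near 0 with DMSO that passed the filter through the ARM165 libraries, so the 2 directions are not compared by them. The median size of a change over all genes was 0.63 on the log2 scale, against a median standard error of 0.099. The counts do not mean that every gene moved far, because 446 genes with a mean of at least 500 had a 95% interval within 0.2 of 0 on either side. Such a small change could still be called, as for UBA1 (-0.099), SRP68 (0.095) and BAZ1B (-0.11) of this set. Among the 10 with the narrowest intervals were the COPII coat gene SEC24C (14979 ± 100 with DMSO and 15493 ± 212 with ARM165), the RNA helicase gene DDX17 (12671 ± 252 and 13160 ± 380), HCLS1, which encodes a cortactin-like protein of blood cells (7097 ± 90.6 and 6880 ± 247), and E2F3 (6128 ± 201 and 5789 ± 193).

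**Figure D1:**
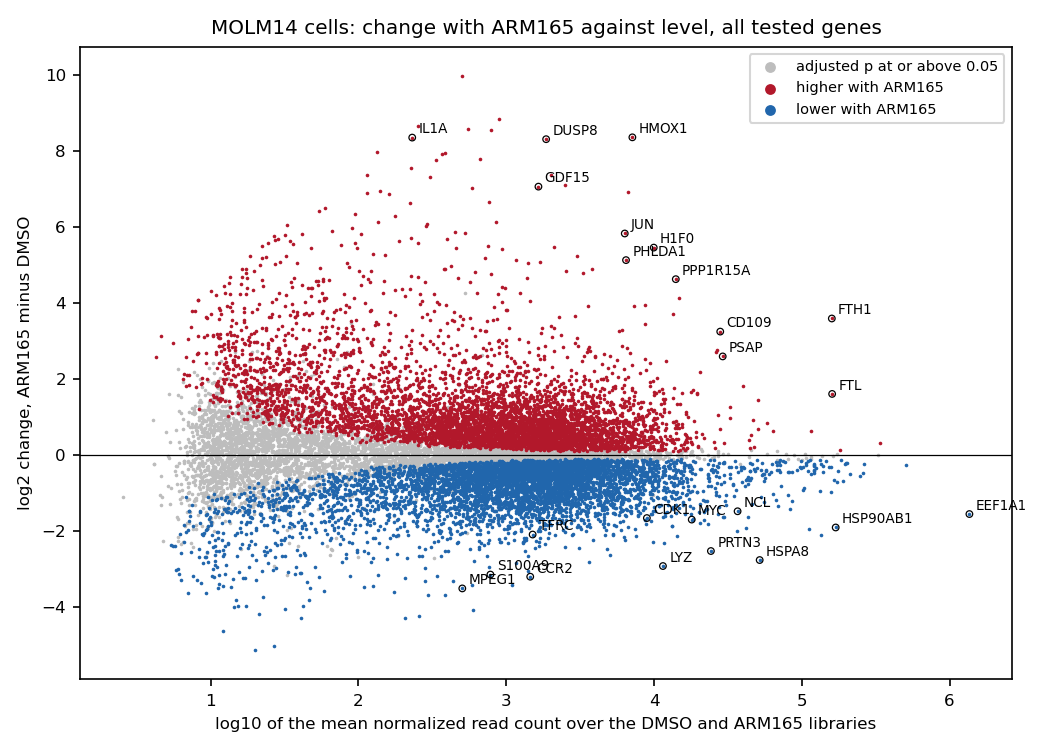
Log2 change with ARM165 (vertical) against the log10 of the mean normalized read count over the 8 DMSO and ARM165 libraries (horizontal) for all 15288 tested genes, coloured by the limma call. Rises of more than 5 units occur at low and middle levels. FTH1 and FTL are among the points far to the right above 0, and those below 0 include EEF1A1 and HSP90AB1.

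The largest rises were in genes all but silent with DMSO, here taken among called genes whose higher group mean was at least 50 and whose groups did not overlap. DUSP8, which encodes a phosphatase of the stress kinases JNK and p38, had 0, 20.9, 36.4 and 21.8 in the DMSO libraries and 4013, 3851, 3801 and 3164 with ARM165 (8.30 ± 1.00, adjusted p = 2.02e-06). LARP6, a collagen mRNA-binding protein gene, went from 0.259, 3.10, 2.33 and 4.31 to 681, 683, 809 and 898 (7.95 ± 0.47, adjusted p = 5.84e-10). Others among the 15 largest were ABLIM3 (11.5 ± 14.7 to 1314 ± 147), NRAP (2.63 ± 2.03 to 735 ± 71.6), NRXN3 (2.22 ± 1.11 to 668 ± 59.0) and KRTAP5-2 (0.0719 ± 0.144 to 269 ± 29.4). The CREB family gene CREB5 had 0.332, 7.29, 0.153 and 1.52 with DMSO and 405, 543, 396 and 458 with ARM165 (7.56 ± 0.68). TATDN2P3, listed as a pseudogene, rose from 4.49 ± 4.91 to 1773 ± 120, and reads of such copies can be shared with a parent gene.

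Under the same rule the 15 largest falls included genes of myeloid cells and of lipid metabolism. MPEG1, the pore-forming protein of phagocytes, had 952, 922, 936 and 903 with DMSO and 80.3, 58.6, 91.0 and 96.7 with ARM165 (-3.52 ± 0.13, adjusted p = 4.42e-12). FADS2, the delta-6 fatty acid desaturase, had 941, 1042, 1110 and 1185, then 71.3, 141, 109 and 87.6 (-3.41 ± 0.16, adjusted p = 3.32e-11). That the groups do not overlap is part of the rule. RASD1, a small GTPase gene, fell from 321 ± 52.1 to 26.9 ± 12.8, HAL, which encodes histidine ammonia-lyase, from 110 ± 23.1 to 8.21 ± 2.17, JAML, a junctional adhesion molecule of leukocytes, from 200 ± 52.9 to 19.9 ± 13.1, and CD247, the zeta chain of the T cell receptor complex, from 79.9 ± 13.3 to 9.53 ± 7.81.

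The genes called lower held 68.5% of the summed values with DMSO and 48.5% with ARM165, and those called higher 18.3% and 36.5%. A part of this shift lay in a few abundant transcripts. EEF1A1, the translation elongation factor that delivers aminoacyl-tRNAs, had 2057990, 1944930, 2095420 and 2027940 with DMSO and 651367, 627627, 731211 and 755068 with ARM165, so its share of the summed values dropped from 4.60% ± 0.072 to 1.78% ± 0.096 (change -1.56 ± 0.078). EEF1A1 has the highest value in the libraries, so quantile normalization sets its change to 0 by construction. The ferritin chains took the opposite course, and FTH1 and FTL together went from 0.235% ± 0.0037 to 1.38% ± 0.017 of the sum. The 10 genes that lost most reads (EEF1A1, HSP90AB1, TUBB, PTMA, ACTG1, HNRNPA2B1, MT-CO1, RPS2, MT-CO3 and GAPDH) held 10.2% of the sum with DMSO and 5.47% with ARM165. The 10 that gained most (FTH1, FTL, TPT1, MTRNR2L12, EIF1, CD109, PLEC, PSAP, PEA15 and CDKN1A) held 1.29% and then 3.57%. TUBB, a beta-tubulin gene, had 217750, 214758, 225434 and 219585 and then 48457, 46193, 55931 and 55200 (-2.10 ± 0.060), and PTMA, which encodes the nuclear protein prothymosin alpha, had 178868, 172340, 183823 and 178309 and then 42604, 41847, 48769 and 53349 (-1.94 ± 0.069). CD109, a membrane glycoprotein that binds TGF-beta, had 5220, 5031, 5700 and 5513 and then 51586, 52500, 45666 and 53355 (3.24 ± 0.052). None of these groups overlapped. EEF1A1, PTMA, FTH1, TPT1 and GAPDH have many processed copies in the genome, and how the authors' counting split reads among them is not known.

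Within the PI3K pathway the members did not move together. Of 15 genes for class I and related PI3K subunits and their adaptors, 6 were higher and 6 lower. Their changes ran from -1.42 to 1.81, and not all of the called members are named here. PIK3IP1, a membrane inhibitor of PI3K, had 212, 166, 166 and 173 with DMSO and 603, 605, 701 and 515 with ARM165 (1.75 ± 0.14, adjusted p = 1.74e-08). PIK3CA, the alpha catalytic subunit, had 424, 349, 387 and 398, then 908, 746, 717 and 907 (1.07 ± 0.097, adjusted p = 8.42e-08). PIK3AP1, the adaptor that links PI3K to B cell and Toll-like receptors, was at 7505, 7630, 8068 and 8028 and then 3305, 3304, 3788 and 3746 (-1.15 ± 0.053, adjusted p = 3.48e-11). PIK3IP1 and PIK3CA thus stood above, and PIK3AP1 below, every DMSO library. PIK3C3, the class III kinase of autophagy, was 0.77 ± 0.072 higher, and for PIK3R1 and PIK3CB the changes were 0.03 and 0.08 and did not pass.

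TRIB3, SESN2 and DDIT4, which restrain AKT or mTORC1, rose, while the lists they belong to held both rises and falls. TRIB3, a pseudokinase that binds AKT, had 2073, 1855, 1896 and 1783 with DMSO and 25941, 22828, 23950 and 26858 with ARM165 (3.71 ± 0.076, adjusted p = 6.8e-15). SESN2, a leucine-sensing inhibitor of mTORC1, had 961, 925, 1038 and 965, then 6312, 6369, 6463 and 6490 (2.72 ± 0.047, adjusted p = 1.29e-15). DDIT4, which acts through the TSC complex against mTORC1, had 6302, 5947, 6224 and 6349, then 20684, 19924, 21522 and 22508 (1.77 ± 0.049, adjusted p = 2.02e-13). All 3 groups with ARM165 lay wholly above those with DMSO. Of 14 AKT, PDK1 and phosphatase genes 8 were higher and 4 lower, with the AKT phosphatase gene PHLPP1 (1.05) among the former. Of 22 mTOR, TSC and sestrin genes 13 were higher and 4 lower, the latter down to 1 with equal library sums. RICTOR and RPTOR, the defining subunits of mTORC2 and mTORC1, were both 0.78 higher, and the kinase gene MTOR itself changed by -0.33, a call lost with equal library sums.

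Most of the listed FOXO factors and genes known to be induced by them were higher. Of 17 tested, 15 were higher and 2 lower, with a median change of 0.87 against 0.031 for all genes. FOXO3 went from 4810 ± 166 to 15181 ± 1010, FOXO1 was 0.87 higher and FOXO4 0.37 higher. TXNIP, the thioredoxin inhibitor that limits glucose uptake, went from 7425 ± 240 to 33833 ± 2405. KLF6 went from 350 ± 9.50 to 3673 ± 196 (3.39 ± 0.064). The 2 exceptions were CITED2 (-1.04 ± 0.071) and IRS2 (-0.24), and with equal library sums 1 of the list was lower. BCL2L11, another known FOXO target, is not in this list and was lower (-1.23). Of 12 tested KLF genes 10 were higher, KLF16 was lower, and KLF5 did not pass (0.29).

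**Figure D2:**
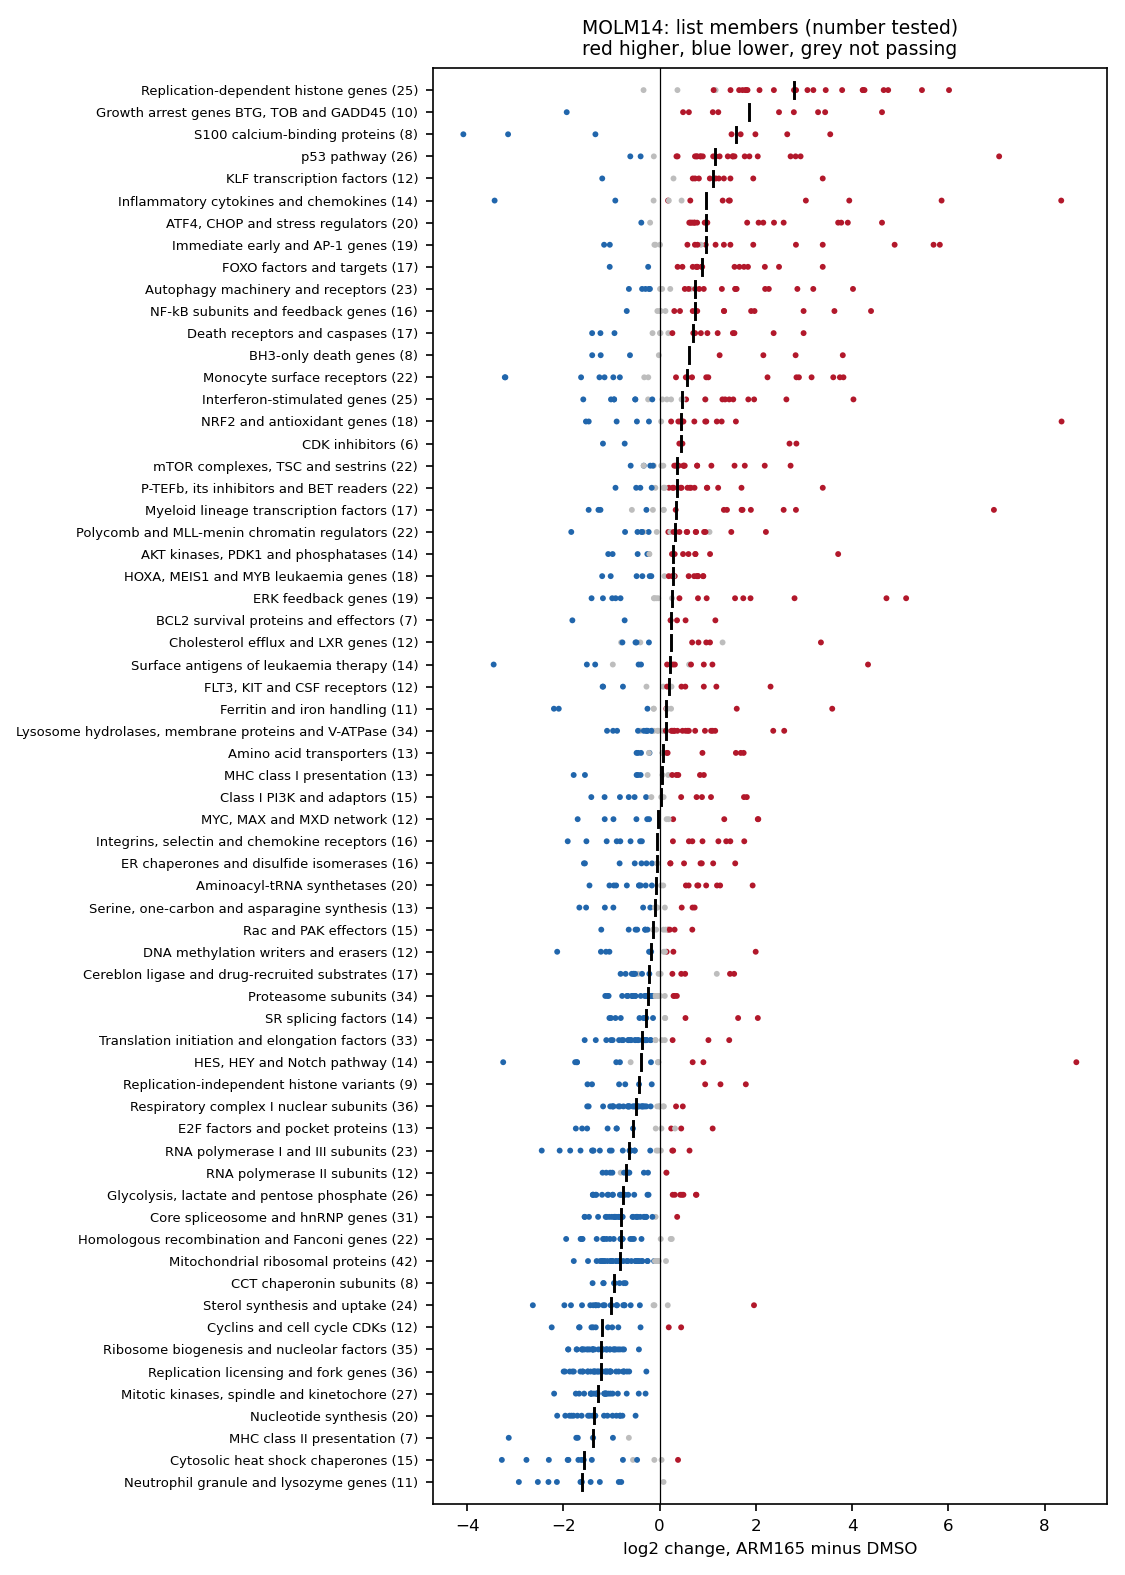
Log2 change with ARM165 for every tested member of each gene list with more than 1, ordered by the median of the list (black bars), with the number tested in brackets. Histone, growth arrest, S100 and p53 lists lie at the top with medians above 1, and replication, nucleotide, MHC class II, heat shock and granule lists at the bottom with medians below -1.

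Genes listed as ERK feedback split. PHLDA1, a pleckstrin-homology gene that ERK signalling is known to induce, had 336, 394, 380 and 333 with DMSO and 12606, 12537, 11656 and 13510 with ARM165 (5.12 ± 0.072, adjusted p = 6.62e-16). DUSP16, in the list though it is a JNK phosphatase gene, had 12.6, 12.5, 17.3 and 21.7, then 443, 463, 388 and 448 (4.71 ± 0.23). Its rise is thus not read as ERK feedback. SPRY4, an inhibitor of receptor tyrosine kinase signalling, had 216, 247, 244 and 207, then 85.2, 79.5, 83.5 and 91.1 (-1.42 ± 0.13). The first pair rose and SPRY4 fell with no overlap of libraries, while the classical ERK phosphatase DUSP6 did not pass (-0.07). Over the 19 members 9 were higher and 5 lower, among them DUSP1 (2.80), ETV5 (1.89), ETV4 (-1.18) and CCND1 (-0.99).

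Of 19 tested immediate early and AP-1 genes, 13 were higher and 2, FOS and FOSL1, lower. JUN had 209, 265, 236 and 177 with DMSO and 12186, 12111, 12391 and 13166 with ARM165, a 56.6-fold rise (5.82 ± 0.10, adjusted p = 1.29e-15). ATF3, a JUN partner induced by stress, had 222, 201, 309 and 282, then 7429, 8062, 6815 and 7332 (4.88 ± 0.12). FOS had 376, 474, 442 and 287, then 161, 140, 222 and 181 (-1.16 ± 0.17, adjusted p = 2e-05), and FOSL1 changed by -1.04 ± 0.087, whereas FOSL2 was 1.47 and JUND 0.73 higher. The nuclear receptor gene NR4A3 went from 9.02 ± 5.30 to 446 ± 74.0, and EGR1 (-0.11), NR4A1 (-0.09) and JUNB (0.01) did not pass.

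MYC mRNA dropped. It had 27218, 26573, 29227 and 27070 with DMSO and 8004, 7352, 9849 and 8747 with ARM165 (-1.70 ± 0.070, adjusted p = 8.58e-12). MXD1, which competes with MYC for its partner MAX, went the other way, from 346, 329, 373 and 352 to 1493, 1420, 1340 and 1514 (2.04 ± 0.073). MXI1, a second repressor of this kind, was 1.34 higher, and MAX itself changed by -0.26.

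Genes of ribosome production, which MYC is known to drive, were mostly lower. All 35 nucleolar and ribosome assembly genes tested were lower, with a median of -1.22. Nucleolin (NCL) had 56697, 51097, 55316 and 53611 with DMSO and 18132, 18170, 19683 and 21536 with ARM165 (-1.49 ± 0.056). The assembly factor genes RRS1 and NOP16 both changed by -1.90, NOP56 of the C/D snoRNA complex by -1.61, and NPM1 by -1.04. Of 23 genes for RNA polymerases I and III and their initiation factors, 17 were lower and 3 higher. CD3EAP, a subunit of polymerase I, had 2668, 2554, 2652 and 2632, then 413, 566, 431 and 523 (-2.45 ± 0.089, adjusted p = 2.66e-12), the largest change of that list. POLR3G (-2.08) followed, and RRN3, the factor that brings polymerase I to its promoter, was 0.62 higher. Of 12 polymerase II subunit genes 9 were lower and 1 higher.

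Translation factors and aminoacyl-tRNA synthetases were less uniform. Of 33 initiation and elongation factor genes, 26 were lower and 3 higher (8 higher under quantile normalization and 6 with equal library sums), from EEF1A1 (-1.56) and EIF5A (-1.33) to EIF5 (1.01) and EIF1 (1.45), the factors that govern start codon choice. Of 20 synthetase genes 10 were lower, led by FARSA (-1.46) and HARS (-1.04), and 8 higher, led by WARS (1.93), AARS (1.26) and SARS (1.19).

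Replication and division genes were lower. All 36 tested licensing and fork genes, all 20 nucleotide synthesis genes and all 27 mitotic genes were lower, with medians of -1.23, -1.37 and -1.29. MCM3, a subunit of the replicative helicase, had 32409, 31976, 32524 and 31004 with DMSO and 11047, 10161, 12187 and 12074 with ARM165 (-1.50 ± 0.052). RRM2, which limits the supply of deoxynucleotides, had 5186, 4970, 5284 and 5000, then 1223, 1247, 1571 and 1232 (-1.96 ± 0.074), and TYMS, thymidylate synthase, had 15189, 14432, 14542 and 13871, then 4920, 4690, 5585 and 5523 (-1.49 ± 0.057). CDC20, the activator of the anaphase-promoting complex, had 8524, 8274, 8588 and 8386, then 3725, 3487, 4236 and 4131 (-1.12 ± 0.055). In none of them did an ARM165 library reach a DMSO one. The smallest falls of these lists were RPA2 (-0.28), GMPS (-0.50) and NDC80 (-0.29). Of 22 homologous recombination and Fanconi genes 19 were lower, and RAD51C (0.02), BRCA2 (0.23) and RAD51B (0.25) did not pass.

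Promoters of 2 of these genes are shown because the lists differ in the short elements they hold. Sequences are from RefSeq on GRCh38.p14 and give the 250 bases before the start of the gene, 5′ to 3′ on the strand of the gene. Both strands were searched, for CCAAT, for TTTGAA (the core of the cell cycle homology region of mitotic genes) and for the E2F element TTTCCCGC. Capitals mark the matches on either strand, and no match overlaps another.
CDC20 (chr1:43358731-43358980, plus strand): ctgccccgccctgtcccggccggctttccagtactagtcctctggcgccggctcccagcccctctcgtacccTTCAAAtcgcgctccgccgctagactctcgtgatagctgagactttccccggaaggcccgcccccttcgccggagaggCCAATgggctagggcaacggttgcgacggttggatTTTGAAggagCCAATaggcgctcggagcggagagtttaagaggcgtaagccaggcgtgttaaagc
MCM3 (chr6:52284743-52284992, minus strand): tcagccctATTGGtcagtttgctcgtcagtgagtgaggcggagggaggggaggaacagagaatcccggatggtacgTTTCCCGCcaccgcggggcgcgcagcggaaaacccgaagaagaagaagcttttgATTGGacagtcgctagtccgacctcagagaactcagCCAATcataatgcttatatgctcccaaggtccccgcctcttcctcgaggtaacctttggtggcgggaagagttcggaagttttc
In CDC20 a TTTGAA lies 65 bases and a CCAAT 55 bases before the start. Of 20 mitotic list genes with a promoter in the table, 16 hold CCAAT and 11 hold TTTGAA, and of 25 replication genes 15 hold CCAAT, 0 hold TTTGAA and 5 hold TTTCCCGC. Over all 22114 promoters of this length the shares are 33.4% for CCAAT, 14.0% for TTTGAA and 1.37% for TTTCCCGC, and over the 7916 tested genes with a promoter they are 36.6%, 8.64% and 2.29%. These are descriptions of sequence and say nothing about binding.

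Cyclins and their kinases followed, with 10 of 12 lower. CCNE1, cyclin E1 of S phase entry, had 1314, 1232, 1365 and 1165 with DMSO and 245, 213, 302 and 320 with ARM165 (-2.24 ± 0.11, adjusted p = 4.54e-11), and CDK1, the kinase of mitotic entry, had 13673, 13382, 13192 and 14171, then 4116, 4227, 4029 and 4832 (-1.66 ± 0.058). CCND2 (0.45) and CDK6 (0.19) were higher. Of 13 E2F and pocket protein genes 7 were lower, among them E2F8 (-1.74), TFDP1 (-1.61) and E2F1 (-1.51), and 3 higher (6 with equal library sums). RB1, the restraint on E2F, had 1453, 1492, 1573 and 1580, then 3204, 3260, 3052 and 3583 (1.10 ± 0.054), while its relatives RBL1 and RBL2 changed by -0.90 and -0.89. Of the 6 tested CDK inhibitor genes 4 were higher. CDKN1C, which encodes p57, had 15.2, 28.6, 12.5 and 2.02, then 86.6, 65.4, 110 and 78.7 (2.84 ± 0.59, adjusted p = 0.000505).

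Histone mRNAs ran against the replication genes. Transcripts of the replication-dependent histone genes mostly end without a poly(A) tail and are made in S phase, so a poly(A) library sees only those that carry one. Of 31 such genes listed, 25 were tested, of which 22 were higher and 0 lower, with a median change of 2.79. The list also holds H1F0, a linker histone of resting cells that is not replication-dependent. Of the 40 tested symbols that start with HIST, 34 were higher and 0 lower. Members near 0 with DMSO could pass the filter only through libraries with a compound, so nothing is read from their lack of falls. H1F0 had 462, 348, 484 and 493 with DMSO and 18282, 18093, 19112 and 22443 with ARM165 (5.45 ± 0.10, adjusted p = 3.19e-15). HIST1H1C had 60.1, 65.6, 34.3 and 69.0, then 1478, 1462, 1446 and 1676 (4.75 ± 0.19), and HIST1H2AC had 107, 148, 82.4 and 91.2, then 2487, 2474, 2441 and 3322 (4.66 ± 0.18). Every ARM165 library was above every DMSO library for these 3. The genes of a histone type are near-identical copies, and reads may be split among them. Replication-independent variants parted, with 6 of 9 lower. H2AFZ, the H2A.Z histone, had 29648, 29638, 30042 and 29759, then 9990, 9567, 10744 and 11933 (-1.50 ± 0.058), and H3F3B was 1.26 and H1FX 1.79 higher.

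Of 21 genes of this histone list with a promoter in the table, 17 hold CCAAT and 13 hold TATAAA, which 11.8% of all promoters and 5.99% of tested genes hold. HIST1H2AC is shown with CCAAT (either strand) and TATAAA in capitals, the latter 31 bases before the start.
HIST1H2AC (chr6:26123922-26124171, plus strand): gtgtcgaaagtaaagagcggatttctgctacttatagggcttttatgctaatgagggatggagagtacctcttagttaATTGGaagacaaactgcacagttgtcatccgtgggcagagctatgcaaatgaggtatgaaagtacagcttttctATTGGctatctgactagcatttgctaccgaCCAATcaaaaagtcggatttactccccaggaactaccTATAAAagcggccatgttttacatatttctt
CCAAT is thus common in promoters of both the list that rose and the mitotic list that fell.

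Growth arrest and p53 pathway genes were mostly higher. Of 10 listed growth arrest genes, 9 rose and GAS1 fell. The list holds the BTG, TOB and GADD45 families and, from outside them, GAS1 and PPP1R15A, the latter described with the stress genes below. BTG1, an antiproliferative partner of the deadenylase complex, had 1721, 1342, 1383 and 1420 with DMSO and 16494, 14232, 16218 and 16500 with ARM165 (3.44 ± 0.088, adjusted p = 8.19e-14). Of 26 tested p53 pathway genes 23 were higher and 2 lower. GDF15, a secreted stress cytokine, had 18.2, 13.6, 44.6 and 27.9, then 3270, 3076, 3328 and 3447, a 133-fold rise (7.05 ± 0.30). MDM2, the ubiquitin ligase of p53, had 3150, 3156, 3176 and 3449, then 10668, 11068, 10473 and 11834 (1.77 ± 0.048), and CDKN1A, which encodes p21, went from 6985 ± 272 to 45344 ± 2398 (2.70 ± 0.051). TRIAP1 (-0.40) was among the lower ones. GDF15, SESN2 and BBC3 are also known targets of ATF4 or CHOP, so the lists are not separate.

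Cell death genes moved both ways. Among BH3-only genes 4 were higher and 3 lower. BMF, a BH3-only protein held on the cytoskeleton, had 105, 130, 153 and 148 with DMSO and 1799, 1928, 1878 and 1869 with ARM165 (3.81 ± 0.13, adjusted p = 1.03e-12). BBC3, which encodes PUMA, went from 602 ± 56.1 to 4262 ± 183, and BCL2L11, which encodes BIM and is a textbook FOXO target, from 680 ± 11.7 to 293 ± 46.7. BID changed by -1.40. Of the survival proteins, BCL2 had 8065, 7844, 8265 and 7898, then 4802, 4576, 4624 and 5396 (-0.73 ± 0.049), BCL2A1 had 167, 175, 198 and 173, then 47.3, 50.5, 46.5 and 55.7 (-1.81 ± 0.13), and MCL1 was 0.54 higher. Over the 7 tested survival and effector genes 4 were higher and 2 lower. Of 17 death receptor and caspase genes 10 were higher, among them the apoptosis inhibitor BIRC3 (2.99), CASP10 (1.55) and the TRAIL receptor gene TNFRSF10B (1.52). The 3 lower were TNFSF10, which encodes TRAIL (-1.40), BIRC5, which encodes survivin (-1.23), and CASP6, an executioner caspase (-0.94 ± 0.12). No list of the death machinery was one-sided.

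Most listed genes of the integrated stress response were higher. This pathway slows translation through eIF2 and raises ATF4 and then CHOP. Of its 20 listed genes 18 were higher and 1 lower, with a median of 0.96. DDIT3, which encodes CHOP, had 980, 905, 931 and 852 with DMSO and 12947, 13647, 13451 and 15164 with ARM165 (3.91 ± 0.059, adjusted p = 6.62e-16). PPP1R15A, the eIF2 phosphatase subunit GADD34, had 1165, 965, 1106 and 1161, then 26736, 26400, 26500 and 28337 (4.62 ± 0.068, adjusted p = 6.62e-16). CHAC1, a glutathione-degrading enzyme, had 231, 280, 294 and 307, then 1171, 1003, 1209 and 1246 (2.06 ± 0.11). ATF4 mRNA itself, largely controlled by translation, was only 0.64 ± 0.051 higher. Of the eIF2 kinases, PERK (EIF2AK3) was 2.15 and PKR (EIF2AK2) 0.78 higher, HRI (EIF2AK1) changed by -0.38 ± 0.084, and GCN2 (EIF2AK4) did not pass (-0.20). Classical ATF4 targets of amino acid metabolism were mixed, with ASNS 0.73 higher, PHGDH at -0.19 and ALDH18A1 at -1.67, and of 13 amino acid transporter genes 6 were higher, led by SLC38A2 (1.75), SLC6A9 (1.69) and SLC7A11 (1.58), and 4 lower.

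The CHAC1 promoter is shown because it holds the ATF4 composite element TGATGCAA (as TTGCATCA, 209 bases before the start), which 2 of 10 listed stress genes and 0.895% of all promoters hold. CCAAT is in capitals too.
CHAC1 (chr15:40953221-40953470, plus strand): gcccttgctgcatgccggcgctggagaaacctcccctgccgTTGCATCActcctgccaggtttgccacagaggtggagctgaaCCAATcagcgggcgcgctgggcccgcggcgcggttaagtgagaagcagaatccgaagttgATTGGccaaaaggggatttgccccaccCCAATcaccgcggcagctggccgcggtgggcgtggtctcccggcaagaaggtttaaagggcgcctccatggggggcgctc
Among tested genes with a promoter, this element was found in 0.492% of those that rose and 0.340% of those that fell.

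Cytosolic chaperones fell while parts of the ER set rose. Of 15 tested heat shock genes 11 were lower and 1 higher. HSPA8, the constitutive HSP70, had 92663, 87844, 93116 and 88150 with DMSO and 12411, 11699, 15042 and 14164 with ARM165 (-2.77 ± 0.067, adjusted p = 4.96e-14), and HSP90AB1 had 271712, 263442, 272362 and 263656, then 67603, 64279, 77726 and 75853 (-1.91 ± 0.061). The mitochondrial pair HSPE1 (-2.30) and HSPD1 (-1.69) fell as well, BAG3 was 0.38 higher, and their master factor HSF1 did not pass (0.04). All 8 subunits of the CCT chaperonin, which folds actin and tubulin, were lower, for example CCT3 from 21960, 20982, 22090 and 20948 to 8023, 7386, 8367 and 9003 (-1.39 ± 0.054). HSPA5, the ER HSP70 known as BiP, moved up instead, from 42565, 41317, 42720 and 40154 to 73956, 73637, 72184 and 80702 (0.85 ± 0.046, adjusted p = 2.17e-10). Of the 16 ER chaperone and disulfide isomerase genes 7 were higher, led by DNAJB9 (1.57), and 7 lower, led by SDF2L1 (-1.57) and CALR (-1.55). HSPA1A and HSPA1B are near-identical copies and are not read here.

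The promoters of HSPA8 and HSPA5 are set side by side because their mRNAs went in opposite directions. Capitals mark GAANNTTC (the core of a heat shock element) and CCAAT on either strand in HSPA8, and CCAAT on either strand in HSPA5.
HSPA8 (chr11:123062137-123062386, minus strand): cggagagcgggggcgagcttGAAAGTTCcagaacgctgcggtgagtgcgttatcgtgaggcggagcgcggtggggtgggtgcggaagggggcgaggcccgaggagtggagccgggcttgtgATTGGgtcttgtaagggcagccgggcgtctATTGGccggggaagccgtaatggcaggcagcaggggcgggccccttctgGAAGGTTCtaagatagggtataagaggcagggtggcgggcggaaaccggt
HSPA5 (chr9:125241344-125241593, minus strand): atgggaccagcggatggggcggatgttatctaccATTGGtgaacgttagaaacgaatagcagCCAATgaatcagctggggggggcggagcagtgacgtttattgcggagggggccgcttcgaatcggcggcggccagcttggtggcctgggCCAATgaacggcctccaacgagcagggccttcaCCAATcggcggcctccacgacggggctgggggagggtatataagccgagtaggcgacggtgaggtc
HSPA8 holds GAANNTTC 230 and 50 bases before its start, and 4 of 9 heat shock genes with a promoter hold it, against 6.01% of all promoters and 4.17% of tested genes. None of 12 ER chaperone genes holds it, and all 12 hold CCAAT.

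Proteasome genes were mildly lower, with 25 of 34 lower and 3 higher, but with equal library sums only 13 were lower and 8 higher, so the direction of this set leans on the scaling. Of 17 tested genes of the cereblon ubiquitin ligase and the proteins that its ligands are known to recruit, 5 were higher and 8 lower. CRBN, the receptor of that ligase, was 0.26 higher, a call lost in 3 of the alternatives tried, with CSNK1A1 (1.46) and ZMYM2 (1.55) above it and IKZF1 (-0.71) and RBX1 (-0.81) below. The ligase used by either compound is not given in the labels.

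Of 11 tested ferritin and iron handling genes, 3 were higher and 3 lower. HMOX1, haem oxygenase 1, which releases iron from haem and is counted with the antioxidant genes, had 43.4, 43.5, 41.2 and 42.2 with DMSO and 14048, 14694, 13334 and 14890 with ARM165, a 327-fold rise (8.35 ± 0.14, adjusted p = 1.29e-15). The ferritin heavy chain gene FTH1 had 25163, 24271, 25109 and 23594, then 286606, 287250, 287119 and 318164 (3.59 ± 0.055), and the light chain gene FTL had 79858, 79245, 81288 and 77564, then 237503, 230576, 239089 and 258383 (1.60 ± 0.056). The transferrin receptor gene TFRC had 2464, 2515, 2425 and 2390, then 577, 591, 572 and 546 (-2.10 ± 0.049, adjusted p = 3.23e-14), and the ferrireductase gene STEAP3 went from 3161 ± 441 to 684 ± 35.4. Neither IREB2 (-0.13), one of the iron regulatory protein genes, nor the divalent metal transporter SLC11A2 (-0.12) passed. ACO1, the other iron regulatory protein gene, was among the called members, a call lost in 1 of the alternatives tried.

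HMOX1 stood far apart from the other targets of NRF2, the oxidative stress factor. Of 18 genes of that list 12 were higher and 5 lower. SLC7A11, the cystine importer, was 1.58, NQO1 1.29, NFE2L2 itself 0.97 and GCLM 0.95 higher, and PRDX1 (-1.53), SOD1 (-1.47) and TXN (-0.89) were lower. SLC7A11 had the next largest change of the list.

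Autophagy genes were more often higher than lower, among them genes for ubiquitin-like proteins of the phagophore and for cargo receptors. Of 23 tested 14 were higher and 5 lower (2 with equal library sums). GABARAPL1 had 102, 111, 103 and 118 with DMSO and 1733, 1751, 1709 and 1886 with ARM165 (4.02 ± 0.096, adjusted p = 4.43e-14), MAP1LC3B, which encodes LC3B, went from 1468 ± 86.8 to 10680 ± 767 (2.86 ± 0.066), and the receptor gene SQSTM1, which encodes p62, had 2202, 2093, 2163 and 2114, then 10133, 10218, 10206 and 10744 (2.27 ± 0.041). The initiating kinase ULK1 was 1.57 higher, and ATG5 (0.01) and ATG3 (0.05) of the conjugation machinery did not pass. TFE3, a lysosomal master factor released when mTORC1 is off, had 471, 436, 431 and 458, then 2357, 2319, 2176 and 2386 (2.36 ± 0.066), and TFEB was 1.07 higher. Their lysosomal targets were split, with 17 of 34 higher and 10 lower (3 with equal library sums), from GLA (-1.09) and LIPA (-0.97) to CTSB (1.10) and ATP6V1H (1.15). PSAP, the precursor of the saposins, had 8436, 7946, 8315 and 8550, then 48566, 49054, 47984 and 54512 (2.59 ± 0.046).

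**Figure D3:**
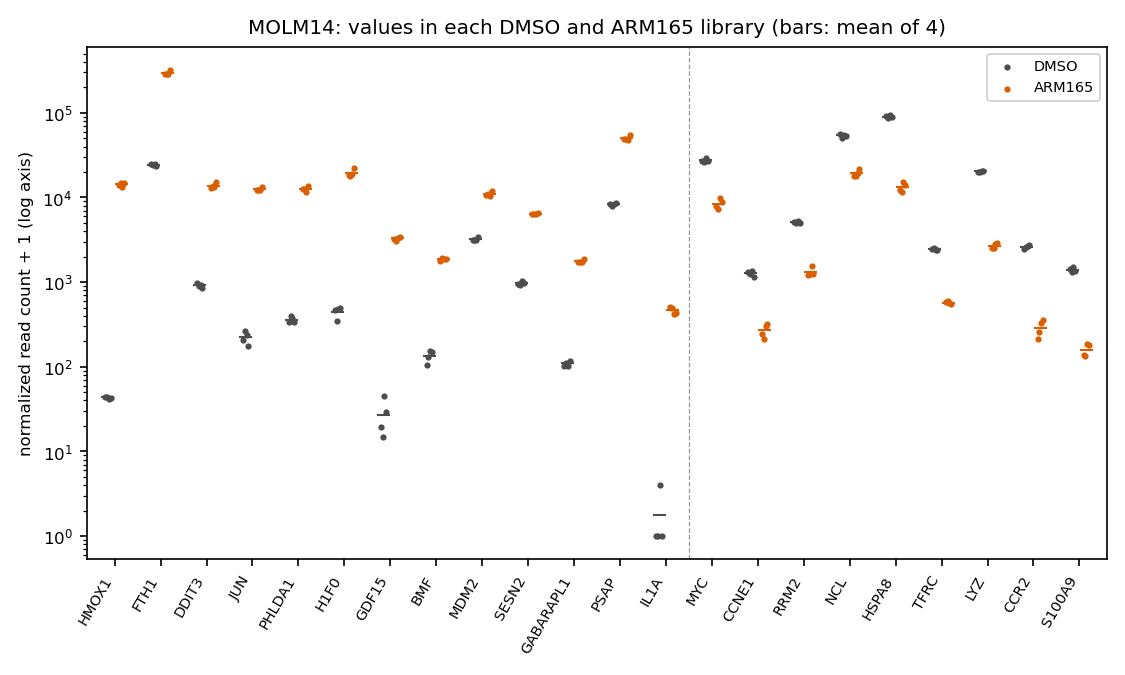
Normalized read count + 1 on a log axis in each of the 4 DMSO (grey) and 4 ARM165 (orange) libraries for 22 genes, with a bar at each mean. The 13 genes left of the dashed line are higher and the 9 right of it lower, and within a gene no library of one group reaches the other.

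Most members of the sterol, glycolysis and mitochondrial lists were lower. Of 24 tested sterol genes 20 were lower, among them the synthesis genes DHCR7 (-1.98) and SQLE (-1.84). ABCA1, the cholesterol exporter, moved the other way, from 5.73, 9.41, 14.2 and 11.5 to 99.4, 93.4, 106 and 141 (3.35 ± 0.38), while the other LXR-linked genes were mixed (5 of 12 higher, 4 lower). Of 26 genes of glycolysis, lactate handling and the pentose phosphate pathway 19 were lower, among them GPI (-1.39), PGK1 (-1.33) and TPI1 (-1.32), and 7 higher, among them the entry kinases HK1 (0.46) and HK2 (0.43) and the oxidative pentose enzyme PGD (0.32). Of 42 mitochondrial ribosomal protein genes 36 were lower and 0 higher (5 higher with equal library sums), led by MRPS26 (-1.79), and of 36 complex I genes 28 were lower and 2 higher (7 with equal library sums), led by NDUFS8 (-1.51). Of the 24 tested symbols of the protein import machinery that start with TIMM or TOMM 20 were lower and 1 higher.

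Granule genes of myeloid cells were lower, and S100 genes were mixed. All 10 called members of 11 tested granule and lysozyme genes were lower, with SERPINA1 (0.08) not passing. Lysozyme (LYZ) had 19841, 20039, 20814 and 20582 with DMSO and 2498, 2511, 2823 and 2875 with ARM165 (-2.93 ± 0.049, adjusted p = 1.29e-15), and PRTN3, proteinase 3, had 42239, 40652, 41395 and 41035, then 6715, 6286, 8949 and 6901 (-2.53 ± 0.091). S100A9, a calprotectin chain, had 1423, 1326, 1512 and 1361, then 139, 133, 183 and 181 (-3.15 ± 0.11), yet 5 of the 8 tested S100 genes were higher, S100P by 3.54 and S100A13 by 2.65. The chemokine receptor gene CCR2 of classical monocytes had 2439, 2580, 2701 and 2763, then 213, 257, 325 and 357 (-3.21 ± 0.12), and CXCR4, the marrow homing receptor, had 10581, 10496, 10748 and 10484, then 2800, 2568, 2756 and 3153 (-1.91 ± 0.057).

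Of 17 tested lineage factor genes 9 were higher and 4 lower. IRF8, which commits progenitors to the monocyte line, had 14619, 14543, 15859 and 14767 with DMSO and 5486, 5012, 5419 and 5577 with ARM165 (-1.48 ± 0.046). CEBPB was 2.58, RUNX3 1.72 and SPI1, the gene of PU.1, 0.33 higher. CEBPA was at -0.28, a fall that turned to 0.077 under quantile normalization. Of 22 tested monocyte surface receptors 13 were higher, among them the costimulatory ligand CD86 (135 ± 26.1 to 1902 ± 158), FPR1 (3.61) and C5AR1 (3.16), and 7 lower, among them LILRB2 (-3.22) and FCGR1A (-1.25). The adhesion genes had 8 of 16 higher and 8 lower, from ITGA4 (-1.52) to ITGAX (1.76).

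Leukaemia genes of this line moved unevenly. FLT3 had 23535, 23639, 24728 and 24399 with DMSO and 10065, 10318, 10852 and 11439 with ARM165 (-1.18 ± 0.046, adjusted p = 5.04e-12), and MYB had 29559, 29250, 30567 and 29747, then 12319, 12164, 13812 and 13816 (-1.20 ± 0.050). HOXA9, which the KMT2A fusion sustains, was higher instead, at 2665, 2698, 2603 and 2785, then 4989, 4893, 4683 and 5650 (0.91 ± 0.055), and so were MEIS1 (0.80), PBX3 (0.72) and HOXA5 (0.77), whereas HOXA10 was at -0.48 and MEN1 at -1.02. FLT3 and MYB thus fell to under their lowest DMSO library and HOXA9 rose above its highest. Of 14 tested surface antigens used in leukaemia therapy, 7 were higher and 5 lower. HAVCR2, which encodes TIM-3, went from 15.8 ± 3.14 to 336 ± 62.1, CLEC12A, which encodes CLL-1, from 229 ± 44.5 to 22.3 ± 12.9, and CD33 and IL3RA changed by -0.39 and 0.15.

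Inflammatory genes rose in part. Of 16 NF-kB subunit and feedback genes 11 were higher and IKBKE was lower. TRAF1, a target of the pathway, had 108, 80.7, 88.5 and 81.0 with DMSO and 1873, 1846, 1894 and 1941 with ARM165 (4.39 ± 0.18, adjusted p = 1.17e-11), with NFKB2 1.90 and RELB 1.34 higher and RELA (0.12) and NFKB1 (0.01) not passing. Of 14 tested cytokine genes 9 were higher. IL1A had 0, 0, 3.05 and 0, then 504, 500, 415 and 429 (8.34 ± 0.61, adjusted p = 6.26e-09), and CXCL8, which encodes interleukin 8, had 15.6, 27.7, 14.4 and 6.35, then 883, 927, 777 and 958 (5.86 ± 0.39). TNF had 1254, 2866, 3105 and 90.2 with DMSO and 32.6, 49.4, 1300 and 33.2 with ARM165. Its groups overlapped, and its call (-3.43 ± 1.3, adjusted p = 0.0255) was lost in 7 of the alternatives tried, so no direction is read from it. Interferon-stimulated genes gave 10 higher and 7 lower of 25, from ISG20 (4.03) and IFIT2 (2.63) to IFITM2 (-1.59). Of 7 tested MHC class II genes 5 were lower, and CD74, the invariant chain, had 6647, 6512, 6952 and 6714, then 2496, 2258, 2916 and 2653 (-1.38 ± 0.068).

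Transcription and chromatin genes were mixed. Of 22 genes for the elongation kinase P-TEFb, its inhibitors, NELF and the BET readers 14 were higher and 4 lower. ELL2, a subunit of the super elongation complex, had 15.4, 20.6, 10.9 and 13.1 with DMSO and 182, 195, 130 and 153 with ARM165 (3.39 ± 0.31, adjusted p = 1.02e-07), AFF4 was 1.70 higher, and AFF1 was at -0.92. TET2, a dioxygenase that removes DNA methylation, had 2382, 2740, 2641 and 2518, then 9995, 10652, 9595 and 10742 (2.00 ± 0.062), while UHRF1 (-2.13), DNMT1 (-1.04) and TET1 (-1.12) were lower. Of 22 polycomb and MLL-menin genes 12 were higher and 6 lower, from CBX2 (-1.84) to KDM6B (2.21). Of 18 tested KDM demethylase symbols 13 were higher and 2 lower. Core spliceosome and hnRNP genes went down, 29 of 31 lower and 1 higher, led by SNRPD1 and SNRPB (both -1.56). The splicing kinase CLK1 went up, from 2749, 2650, 2405 and 2620 to 10452, 11099, 9951 and 11373 (2.04 ± 0.053), with CLK4 1.63 higher and 9 of 14 SR factor and kinase genes lower. Of 20 nucleoporin symbols 17 were lower.

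The direction of change went with the length and the level of a gene. Among 13818 protein-coding genes matched to GENCODE 29, 28.2% were higher and 46.2% lower in the decile with the shortest genomic span (median 3.46 kb), and 46.2% were higher and 19.5% lower in the decile with the longest (median 246 kb). By level, 72.1% of 549 genes with a DMSO mean from 10000 to 100000 were lower, as were 49 of the 60 above 100000. Genes with a DMSO mean under 10 could pass the filter only with libraries above that mean, so nothing is read from their share of rises. Within bands of DMSO level the relation to span was uneven. Between 10 and 100, 27.8% were higher and 16.8% lower among the shortest 2 deciles, and 27.9% and 9.31% among the longest 2, with nearly the same share of rises. Between 100 and 1000, the shares were 36.1% higher and 39.0% lower among the shortest 2, and 51.7% and 24.0% among the longest 2. Between 1000 and 10000, 19.8% were higher and 66.3% lower among the shortest 2 deciles, and 52.0% were higher and 32.1% lower among the longest 2. Of 430 zinc finger genes with a ZNF symbol 203 were higher and 90 lower. Genes are not independent replicates and these shares carry no test, and the part of library depth or fragment size in them was not tested.

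**Figure D4:**
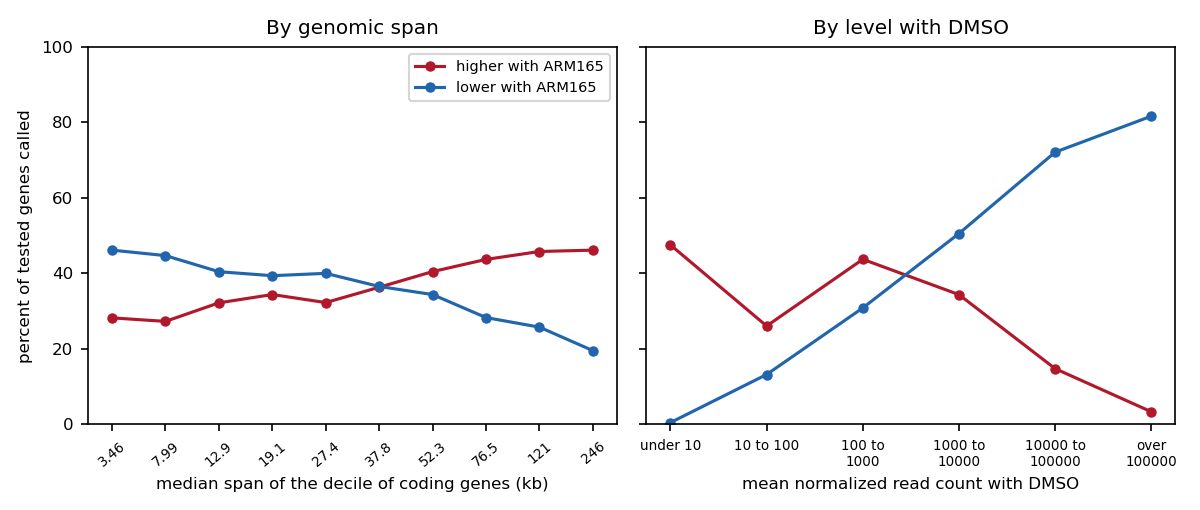
Percent of tested genes called higher (red) or lower (blue) with ARM165, by decile of genomic span of protein-coding genes (left, labelled by median span in kb) and by mean normalized read count with DMSO (right). The share lower drops from 46.2% to 19.5% along the span, and reaches 72.1% and more at the highest levels.

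The AZ2 libraries of the same line are given only side by side, since doses are not known to match. HMOX1 was at 41.6 ± 10.4 with AZ2, FTH1 at 24210 ± 1798, JUN at 220 ± 15.2, MYC at 28548 ± 879, HSPA8 at 90953 ± 4037, LYZ at 19254 ± 539 and TFRC at 2442 ± 96.0 (SD, n = 4). Beside the values above, each of these means lies closer to the DMSO mean than to that with ARM165. These genes were picked with their large changes with ARM165 known. No share over all genes is given, so nothing is read from them about the effect of AZ2 at large.

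In OCI-AML2, measured against its own DMSO libraries, the change with ARM165 could be compared with that in MOLM14 for 14287 genes. Over these genes the changes had a Pearson correlation of 0.717 and a Spearman correlation of 0.711, as a description across genes that share libraries. Of the genes called in MOLM14 72.5% were called the same way in OCI-AML2, and of those called in OCI-AML2 75.2% in MOLM14. These shares are to be read beside the calls in either direction, 10123 of the 14287 in MOLM14 and 9750 in OCI-AML2. The change differed between the lines for 42.4% of genes by the interaction test, 3471 with a higher and 2582 with a lower value in OCI-AML2, a split that turned to 2382 and 3821 with equal library sums. JUN (5.82 in MOLM14, 5.88 in OCI-AML2), GDF15 (7.05 and 7.01), MAP1LC3B (2.86 and 2.91), CDK1 (-1.66 and -1.64) and H2AFZ (-1.50 and -1.49) had like values and a difference that did not pass.

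Some responses were larger in MOLM14. The difference, OCI-AML2 minus MOLM14, was -1.64 ± 0.097 for TRIB3, -3.09 ± 0.40 for CXCL8 and -3.39 ± 1.0 for IL1A, each of which rose in both lines. ULK1, 1.57 higher in MOLM14, had a change of 0.00 ± 0.061 in OCI-AML2 (difference -1.57 ± 0.085, adjusted p = 6.2e-13). TMTC1, an ER mannosyltransferase gene, went from 4.39 ± 2.90 to 351 ± 80.8 in MOLM14 and changed by -0.03 ± 0.11 in OCI-AML2 (difference -6.30 ± 0.74), and BMP6 went from 0.928 ± 1.08 to 63.5 ± 12.0 in MOLM14 (difference -6.46 ± 1.4). LYZ and FADS2 fell further in MOLM14, by 1.66 ± 0.082 and 1.86 ± 0.19 units.

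Others were larger in OCI-AML2. The difference was 3.54 ± 0.13 for DDIT4, 2.86 ± 0.22 for CHAC1, 2.82 ± 0.11 for CDKN1A, 1.53 ± 0.068 for ATF4 and 1.64 ± 0.11 for SESN2. By list, all 19 of the synthetase genes with a called difference among 20, and all 28 among 33 translation factors, had the higher value in OCI-AML2, and all 21 called among 36 replication genes the lower one. For the translation factors this was not a larger response, since their median change was -0.37 in MOLM14 and 0.04 in OCI-AML2. SLAMF7 was 0.61 higher in MOLM14 and 4.36 higher in OCI-AML2. CPXM1, a carboxypeptidase-like gene, fell in MOLM14 (701 ± 29.9 to 259 ± 39.6, change -1.44 ± 0.11) and rose in OCI-AML2 (4.49 ± 0.58), 1 of 636 genes called in opposite directions with a called difference.

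**Figure D5:**
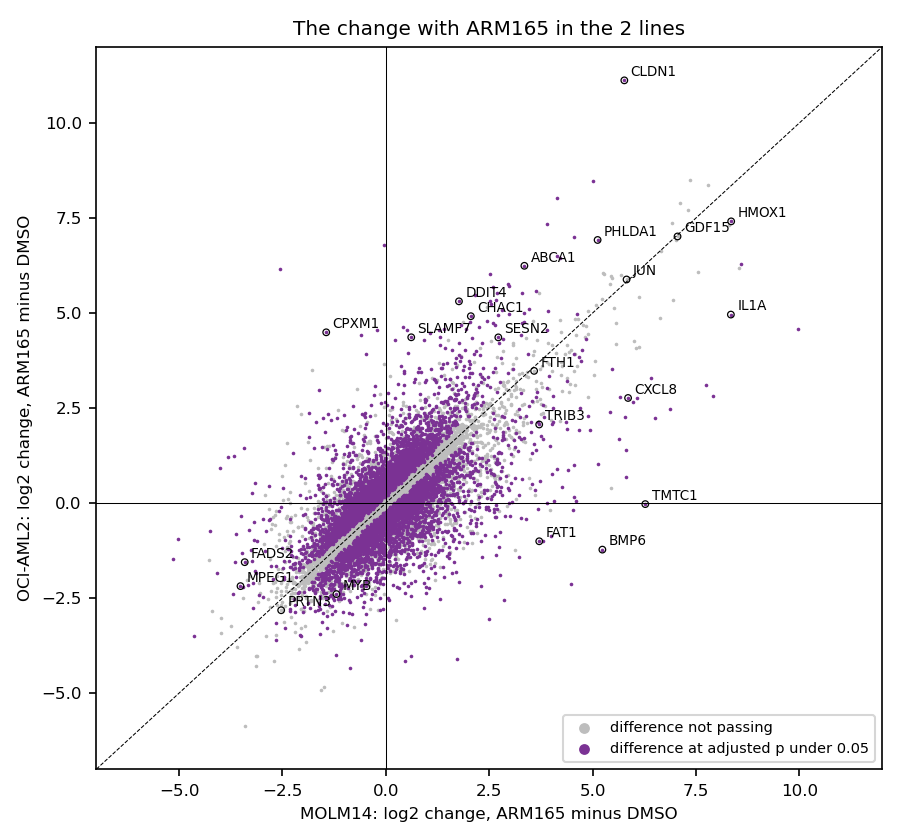
Log2 change with ARM165 in MOLM14 (horizontal) and OCI-AML2 (vertical) for the 14287 genes tested in both, coloured by the call of the difference, with the dashed line marking equal changes. JUN and GDF15 lie on the line, DDIT4, CHAC1 and CLDN1 above it, and TMTC1, BMP6, FAT1 and IL1A below it.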

How the data were processed

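Poly(A) RNA of 24 libraries, 12 of them from MOLM14, was measured by stranded sequencing, per the labels' protocols. The deposited values are signal per gene symbol: estimated read counts that the authors made with kallisto (version not given in the sources used here), per the submitters' processing notes, and normalized, each line in its own table. The genome build, annotation and scaling method are not given in the sources used here. Estimated reads per library are set out with the results, and values of normalized counts cannot be given counting intervals.

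Genes reaching 10 in 4 or more libraries were tested with limma 3.58.1 (trend, R 4.3.3) on log2(value + 1) over the 12 MOLM14 libraries (9 residual degrees of freedom). Two-sided p-values were adjusted by Benjamini-Hochberg over all genes tested and called under 0.05. Fold changes on this scale understate those of low genes. The change was compared between lines by an interaction term over all 24 libraries. The fits were tested on simulated data. Promoters were matched by symbol to RefSeq (GRCh38.p14), and gene spans to GENCODE 29.

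Members and lists were chosen with earlier results of these data known. Genes are named by a rule: those marked in the lists, up to 4 members each way of each list, the 15 largest rises and falls, the 10 largest shifts of reads each way and the 10 narrowest intervals; a few further list members are named after their values were seen. Alternatives were another added value (5), no filter, a filter at 100, quantile normalization, equal library sums, only the DMSO and ARM165 libraries, a replicate block, and each library left out. The dose and the source of each replicate are not given in the labels. Some genes are not reported here.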

Additional observations from a re-analysis of the deposited data

Results flagged for a closer look

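Among 152 groups of 4 libraries, DMSO or ARM165, of the 76 genes described with all values, 12 held a library whose gap to the nearest of the others exceeded Dixon's critical share of the range for 4 values. Chance flags about 5% of groups. With ARM165, replicate 4 was the high library for FTH1 (318164), PSAP (54512), HIST1H1C (1676), HIST1H2AC (3322) and SQSTM1 (10744), replicate 3 the high library for RRM2 (1571) and TNF (1300), and replicate 2 the low library for BTG1 (14232). With DMSO, the high libraries were replicate 1 for PIK3IP1 (212), replicate 3 for IL1A (3.05) and IRF8 (15859), and replicate 4 for MDM2 (3449). All but the TNF library lay on their own side of the other group.

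The change with ARM165 differed between OCI-AML2 and MOLM14 for 49 of the 73 described genes that had this test, by the interaction term of limma at an adjusted p under 0.05, against 42.4% of all genes. The values that follow are OCI-AML2 minus MOLM14 on the log2 scale. They were above 0 for TNF (4.88), DDIT4 (3.54), ABCA1 (2.89), CHAC1 (2.86), FADS2 (1.86), PHLDA1 (1.80), LYZ (1.66), SESN2 (1.64), MPEG1 (1.33), BCL2A1 (1.33), S100A9 (1.31), HSPA8 (1.12), SQSTM1 (1.12), FOS (0.96) and SPRY4 (0.91). They were above 0 as well, and smaller, for PIK3CA (0.86), HSP90AB1 (0.84), FTL (0.79), DDIT3 (0.65), TUBB (0.55), HSPA5 (0.54), CCNE1 (0.50), CD3EAP (0.50), BTG1 (0.48), CCR2 (0.45), CCT3 (0.43), TFRC (0.38), PPP1R15A (0.36), TFE3 (0.29) and NCL (0.22). They were below 0 for IL1A (-3.39), CXCL8 (-3.09), TRIB3 (-1.64), BMF (-1.23), MYB (-1.20), ELL2 (-1.10), DUSP16 (-0.96), HMOX1 (-0.94), BCL2 (-0.84), MDM2 (-0.82), HIST1H1C (-0.72), IRF8 (-0.63), TET2 (-0.55), RB1 (-0.53), FLT3 (-0.46), TYMS (-0.44), MCM3 (-0.36), CDC20 (-0.28) and PSAP (-0.21). The sign says how the lines differ and not which way the gene moved: MPEG1, FADS2 and LYZ fell in both. The difference for TNF has a standard error of 1.9 and rests on MOLM14 groups that overlapped, so no direction is read from it. With equal library sums the median difference over all genes moved from 0.044 to -0.11, so small differences lean on the scaling.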

How the results depend on the processing

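The count of 10623 genes changed with ARM165 in MOLM14 was 10668 with 5 added before the log, 10619 with no filter, 9398 with a filter at 100, 10773 under quantile normalization, 10818 with equal library sums and 10422 from the DMSO and ARM165 libraries alone. Leaving out each library in turn gave 10131 to 10303. Replicate numbers are shared between groups in the labels, but deviations of same-numbered DMSO and ARM165 libraries correlated at only -0.026 to 0.012, no library correlated best with its own number, and a replicate block moved the count to 10582. The count of genes that differ between lines was 5970 with the replicate block and 5719 to 6057 with a library left out. Over all tested genes the median change was -0.060 under quantile normalization and 0.22 with equal library sums.

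Of 566 genes named by the rule 532 were called, and each alternative removed between 0 and 18 of these calls. The sign turned under a scaling for BAZ1B (0.042 under quantile normalization and 0.078 with equal sums), CEBPA (0.077 under quantile normalization), NELFCD (0.025), RRAGA (0.050) and UBA1 (0.092), the last 3 with equal sums; the cause was not tested. The top ranks EEF1A1 and MT-CO1 have a change of 0 under quantile normalization by construction. Counts of list members under an alternative stayed within 1.5 times in 1898 cases and moved further in 52. Counts of low genes depend on the filter: 6 histone genes were under it, and with a filter at 100 the count of higher histone genes was 11. The part of depth in this was not tested.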
